A study of Mus musculus with 24 samples.

Results

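H3K27me3 was compared between basal cells of the mouse mammary gland that carried both Lgr5 and a high level of Tspan8 (Lgr5+Tspan8hi) and basal cells that carried neither (Lgr5-Tspan8-). The comparison took the 2 H3K27me3 libraries of each of these subpopulations, chosen by their labels, which are 4 of the 16 immunoprecipitated libraries with counts in the series. The other 4 H3K27me3 libraries, from the subpopulations that carried only one of the markers (Lgr5+Tspan8- and Lgr5-Tspan8hi), entered the fit to estimate the spread. The study sorted these cells by flow cytometry straight from the mammary glands of untreated C57BL/6 females, sheared their chromatin to fragments of 200 to 400 bp and sequenced what antibodies against H3K27me3 or H3K4me3 brought down. Its title concerns mammary stem cells that divide rarely and respond to hormones. The labels give no age, no stage of the oestrous cycle and no statement that replicates came from separate animals, so p-values measure the spread between these libraries, which may be technical.

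H3K27me3 is trimethylation of lysine on the tail of histone H3, written by the Ezh2 or Ezh1 subunit of Polycomb repressive complex PRC2 and removed by the demethylases Kdm6a and Kdm6b. It covers silent developmental genes in broad domains, and in females it also covers much of the inactive X chromosome. H3K4me3 marks the start sites of active and poised genes, and a gene that holds both marks in the same cells is called bivalent. Basal cells form the outer layer of the mammary epithelium and include contractile myoepithelial cells and cells that can rebuild a gland when transplanted. Lgr5 is a receptor for R-spondins, which strengthen Wnt signalling, and Tspan8 is a tetraspanin of the cell membrane.

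Total H3K27me3 counts were 5888558 and 5336563 in the Lgr5+Tspan8hi libraries, against 4338218 and 6972189 in the Lgr5-Tspan8- libraries. The remaining libraries held between 2639862 and 6300093 counts. H3K27me3 counts grew with gene length (Spearman correlation 0.71 across 20946 genes, a description), so levels are compared between genes only per kb. H3K4me3 counts did so less (0.17 across 18065 genes). Replicate libraries differed by more than counting error: their chi-square over its degrees of freedom was 3.78 for Lgr5+Tspan8hi and 5.43 for Lgr5-Tspan8- cells, where counting alone gives about 1. In such bulk libraries, fewer cells that carry the mark and less mark per cell cannot be told apart. The basal label was set beside H3K4me3 at marker genes, which does not tell basal from luminal cells here. The summed level of 8 basal markers was 531 and 632 CPM (counts scaled to library size, here of the library total) in Lgr5+Tspan8hi libraries, against 619 and 651 CPM in Lgr5-Tspan8- libraries. Krt5 and Krt14, the basal keratins, held between 95.1 and 148 CPM in all 4 libraries, while Trp63, the basal transcription factor, held at most 2.92 CPM of H3K4me3. The luminal keratin Krt8 held similar levels, at 107 and 106 CPM in Lgr5+Tspan8hi libraries and 96.9 and 106 CPM in Lgr5-Tspan8- libraries. Summed pan-luminal markers held 420 and 350 CPM against 329 and 324 CPM, and summed fibroblast markers 157 and 169 CPM against 232 and 244 CPM, in the same order of groups. Of the 6 fibroblast markers, Dcn passed downward and the others did not pass, with Prrx1 at -0.76, Col1a1 at 0.18 and Col1a2 at 0.46. Summed hormone-sensing luminal markers held 213 and 199 CPM against 215 and 212 CPM. Summed Schwann markers held 182 and 206 CPM against 207 and 205 CPM. Immune markers summed to 17.4 CPM or less.

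Of 22099 genes tested, 77 had higher H3K27me3 in Lgr5+Tspan8hi cells (0.348% of genes tested) and 211 had lower (0.955%), at an edgeR quasi-likelihood adjusted p under 0.05. Together these were 288 genes (1.3%), and 73.3% of them were lower. Of the higher genes 19 and of the lower genes 39 differed by more than 2-fold, with medians of 0.74 and -0.78 on the log2 scale. In all 288 genes both Lgr5+Tspan8hi libraries lay on one side of both Lgr5-Tspan8- libraries. Such separation is common in the table, at 23.3% of genes upward and 21.6% downward. Genes with neighbours closer than 100 kb were joined into loci, which gave 70 higher loci from 73 genes with coordinates and 186 lower loci from 204. The higher genes were long, with a median of 142.1 kb, against 49.91 kb for the lower genes and 19.78 kb for all genes tested. Per kb the median level was 0.845 CPM at the higher genes, 2.37 CPM at the lower genes and 0.667 CPM at all genes. Not scaled by length, the median was 113 CPM in both sets, against 11.5 CPM for all genes tested. Genes with more counts pass more easily, and the contrasts with all genes were not matched for counts.

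**Figure D1:**
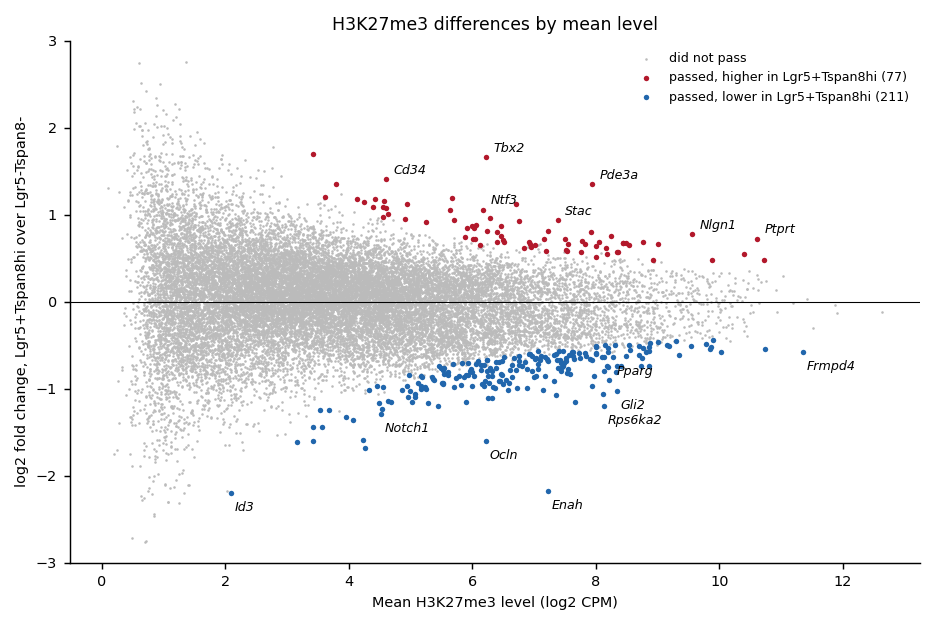
Each point is a gene, with its mean H3K27me3 level (log2 CPM over 8 libraries) on the horizontal axis and the log2 fold change of Lgr5+Tspan8hi over Lgr5-Tspan8- cells on the vertical axis. The 77 genes that passed upward and the 211 that passed downward are coloured, and among the labelled genes Enah at -2.17 and Ocln at -1.61 lie far below others of a similar level, while Tbx2 at 1.66 and Pde3a at 1.35 lie far above.

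The split between directions depended on how the libraries were scaled. With offsets fitted for each library against mean abundance, 124 genes were higher and 151 lower. With offsets fitted against reads per kb, 125 were higher and 191 lower, and 70 of the 77 higher and 127 of the 211 lower genes kept their calls. With library totals alone, 99 were higher and 144 lower. The number of calls also moved with single libraries. It was 31 without Lgr5+Tspan8hi replicate 1, 41 without its replicate 2, 42 without Lgr5-Tspan8- replicate 2 and 1465 without Lgr5-Tspan8- replicate 1. Enah, Pde3a, Ocln, Tbx2, Gli2, Ptprt, Rps6ka2 and Stac kept their calls under each of the 18 other settings. Of 58 named genes that passed, 10 kept the call without Lgr5+Tspan8hi replicate 1, 12 without its replicate 2 and 14 without Lgr5-Tspan8- replicate 2, so most calls below rest on those libraries.

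At 10 genes higher H3K27me3 came with lower H3K4me3. In the H3K4me3 libraries of the same subpopulations, 2 of 19009 genes tested were higher in Lgr5+Tspan8hi cells (0.0105%) and 18 were lower (0.0947%). Of the 18 lower genes, 10 were among the 77 with higher H3K27me3, and 17 had a positive H3K27me3 fold change, with a median of 0.74. All 10 genes that passed in both marks changed in opposite directions. They are Pde3a, Tbx2, 2610027K06Rik, Lrfn5, Nlgn1, Sorcs1, Ptprt, Spock3, Asb2 and Stac. Of these, Tbx2 and 2610027K06Rik are neighbours with nearly the same H3K4me3 levels and may not be separate changes. Libraries of both marks with the same number share the labels' sample number and may come from the same chromatin. The number of H3K4me3 calls moved with single libraries, as given below. The effective depth of the H3K4me3 libraries, defined below, was 39.6 and 34.1% in Lgr5+Tspan8hi cells, against 69.6 and 93.0% in Lgr5-Tspan8- cells. Whether this bears on the lower H3K4me3 was not tested.

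Pde3a, the phosphodiesterase that breaks down cyclic AMP in smooth muscle and other cells, lies at chr6:141249269-141506862. It held 312 and 343 CPM of H3K27me3 in Lgr5+Tspan8hi libraries, against 135 and 122 CPM in Lgr5-Tspan8- libraries. The log2 fold change was 1.35 ± 0.13 (SE, edgeR adjusted p = 1.06e-06). Its H3K4me3 was 15.8 and 19.4 CPM in Lgr5+Tspan8hi libraries, against 73.5 and 84.9 CPM in Lgr5-Tspan8- libraries, or -2.16 ± 0.27 on the log2 scale (adjusted p = 3.99e-08).

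Tbx2, a T-box repressor that represses cell-cycle inhibitor genes and acts in mammary development, lies at chr11:85832615-85841948. Its H3K27me3 was 91.6 and 105 CPM in Lgr5+Tspan8hi libraries, against 33.5 and 28.8 CPM in Lgr5-Tspan8- libraries. This was the largest gain among the genes taken by the naming rule, at 1.66 ± 0.18 on the log2 scale (edgeR adjusted p = 5.14e-06). H3K4me3 at Tbx2 was 63.0 and 40.0 CPM against 115 and 144 CPM, in the same order of groups, and fell by 1.36 on the log2 scale (adjusted p = 5.29e-06). The neighbouring gene 2610027K06Rik, which overlaps Bcas3, passed in the same directions, at 1.19 ± 0.19 in H3K27me3 and -1.40 ± 0.21 in H3K4me3. It ends at 85832388, just before the start of Tbx2. Its H3K4me3 was nearly that of Tbx2, at 65.1 and 37.8 CPM against 122 and 144 CPM. Whether both genes draw on the same marked region was not tested, so they may not be separate changes.

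Ptprt is a receptor-type tyrosine phosphatase whose outer part binds the same molecule on a neighbouring cell, and it spans chr2:161521988-162661147. It held 1783 and 1894 CPM of H3K27me3 in Lgr5+Tspan8hi libraries, against 1130 and 1095 CPM in Lgr5-Tspan8- libraries (log2 fold change 0.72 ± 0.10, edgeR adjusted p = 0.000249). Its H3K4me3 was 25.7 and 31.6 CPM against 54.8 and 77.0 CPM, in the same order (-1.22 ± 0.25, adjusted p = 0.008). Nlgn1, a postsynaptic adhesion molecule that binds neurexins, held 951 and 926 CPM of H3K27me3 against 635 and 465 CPM (0.77 ± 0.13, adjusted p = 0.00261). Neither gene's groups overlapped in either mark. Lrfn5, also a synaptic adhesion molecule, rose by 0.70 in H3K27me3, and Spock3, a testican proteoglycan of the matrix, rose by 0.75. Their H3K4me3 fell by 2.06 and 2.07 on the log2 scale.

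Stac encodes an adaptor of voltage-gated calcium channels and lies at chr9:111561437-111690588. H3K27me3 there was 185 and 217 CPM in Lgr5+Tspan8hi libraries, against 114 and 96.6 CPM in Lgr5-Tspan8- libraries (0.94 ± 0.14, edgeR adjusted p = 0.0011). Asb2, the substrate receptor of a ubiquitin ligase that targets filamins, held 33.4 and 31.7 CPM of H3K27me3 against 18.7 and 14.1 CPM, in the same order (1.00 ± 0.24, adjusted p = 0.0371). The gain at Stac kept its call under every other setting, whereas that at Asb2 kept it under 10 of the 17 that gave an adjusted p. Sorcs1, a sorting receptor of the Vps10 family and the only one of the 10 that the naming rule did not take, held 486 and 420 CPM against 335 and 234 CPM of H3K27me3 (0.68 ± 0.14).

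**Figure D2:**
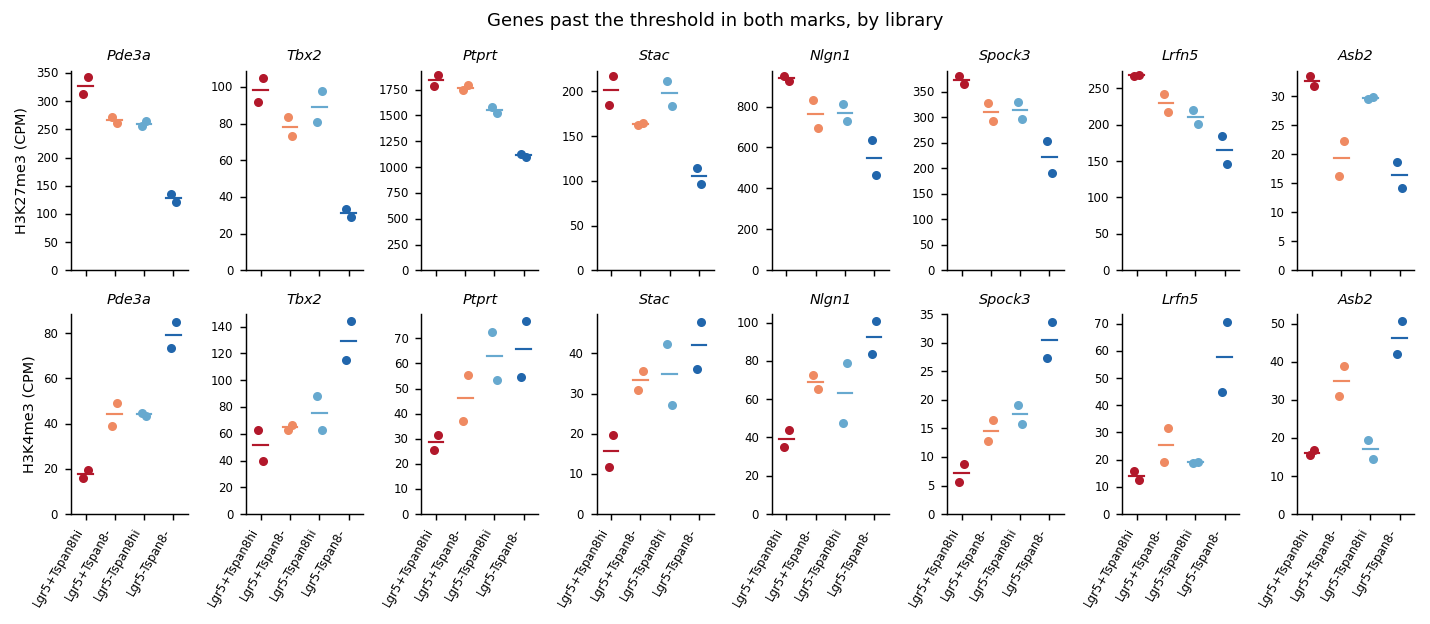
Points are single libraries and bars the mean of each subpopulation, in CPM, for 8 genes that passed in both marks, with H3K27me3 in the upper row and H3K4me3 in the lower row. In each panel both Lgr5+Tspan8hi libraries lie above both Lgr5-Tspan8- libraries in H3K27me3 and below them in H3K4me3, and the single-positive subpopulations mostly lie between, as at Pde3a.

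The opposite movement was not limited to the genes that passed in both marks. Of the 66 genes with higher H3K27me3 that were tested in H3K4me3, 61 had a negative H3K4me3 fold change (92.4%), against 49.3% of all genes, and their median was -0.57. The share ran from 82.2% to 100% under the other settings of either mark. Genes with little H3K4me3 leaned downward as a whole. Split into 5 equal bins by H3K4me3 level, the lowest bin had 62.4% of its genes below 0, and 7 of its 9 genes with higher H3K27me3. The highest bin had 38% below 0, and all 9 of its genes with higher H3K27me3. The 190 tested genes with lower H3K27me3 showed no clear reverse: 105 had a positive and 85 a negative H3K4me3 fold change (44.7% below 0). Their median was 0.03, and none passed in H3K4me3, where 1075 of all genes had an unadjusted p under 0.05. The share below 0 depended on the setting of H3K27me3. It was 38.2% with offsets against reads per kb, 30% without Lgr5-Tspan8- replicate 2 and 56.8% without its replicate 1. Under other settings of either mark at most 3 of the lower genes passed upward in H3K4me3.

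**Figure D3:**
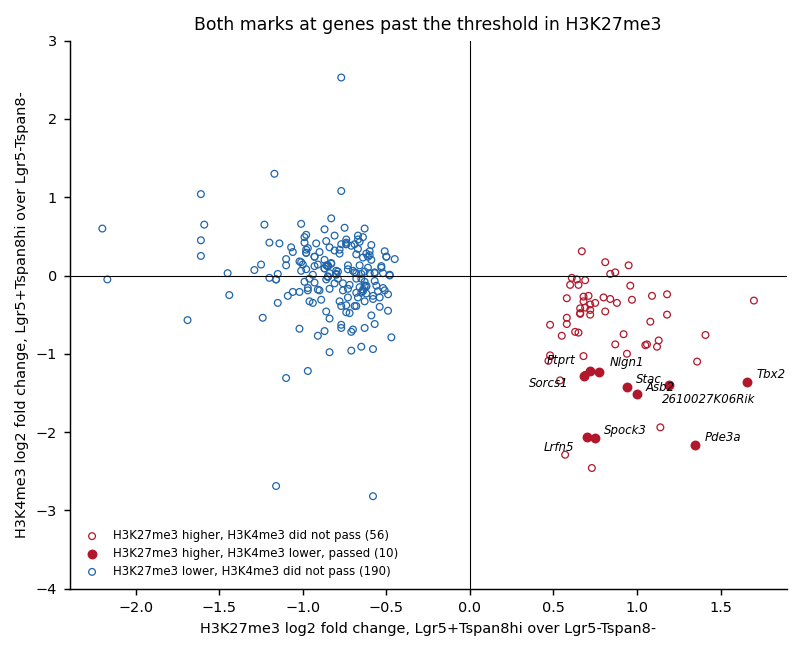
For each gene past the threshold in H3K27me3 and tested in H3K4me3, the H3K27me3 log2 fold change of Lgr5+Tspan8hi over Lgr5-Tspan8- cells is on the horizontal axis and that of H3K4me3 on the vertical axis. Of the 66 genes on the right, 61 lie below 0 and 10 passed (filled), while the 190 genes on the left scatter around a median of 0.03.

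Promoter sequences are shown for a pair of genes that gained H3K27me3 and lost H3K4me3 (Ptprt and Stac) and for the pair of genes with the smallest p among losses of H3K27me3, whose H3K4me3 did not pass (Enah and Ocln). Each is the 250 bases before the start used in the RefSeq promoter table of GRCm38.p6, which for Stac and Enah lies inside the gene's full span, written 5′ to 3′ with every CpG, the target of DNA methylation, in capitals. Ptprt is at chr2:162661148-162661397, minus strand, and holds 39 CpGs. Stac is at chr9:111690349-111690598, minus strand, and holds 21. Enah is at chr1:182019981-182020230, minus strand, and holds 42. Ocln is at chr13:100552719-100552968, minus strand, and holds 14. Of 27025 promoters in the table, 91.7% hold at least 1 CpG (CG on either strand reads the same) and 38.2% hold at least 10, as all 4 do. Among genes tested in H3K27me3 that have a promoter sequence, 51% hold at least 10. The share was 48.1% for the higher and 56.5% for the lower genes, so the 4 shown are examples only.
Ptprt: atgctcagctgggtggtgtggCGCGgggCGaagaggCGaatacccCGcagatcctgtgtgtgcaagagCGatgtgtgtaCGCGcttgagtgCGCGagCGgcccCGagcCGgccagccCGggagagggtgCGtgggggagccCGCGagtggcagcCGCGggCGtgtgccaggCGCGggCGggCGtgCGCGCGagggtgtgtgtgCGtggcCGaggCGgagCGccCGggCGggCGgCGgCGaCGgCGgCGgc
Stac: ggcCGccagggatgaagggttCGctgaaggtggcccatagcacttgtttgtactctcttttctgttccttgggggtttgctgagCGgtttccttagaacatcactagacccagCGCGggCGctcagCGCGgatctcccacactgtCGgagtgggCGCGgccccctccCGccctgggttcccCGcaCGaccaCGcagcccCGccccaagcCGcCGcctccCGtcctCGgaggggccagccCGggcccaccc
Enah: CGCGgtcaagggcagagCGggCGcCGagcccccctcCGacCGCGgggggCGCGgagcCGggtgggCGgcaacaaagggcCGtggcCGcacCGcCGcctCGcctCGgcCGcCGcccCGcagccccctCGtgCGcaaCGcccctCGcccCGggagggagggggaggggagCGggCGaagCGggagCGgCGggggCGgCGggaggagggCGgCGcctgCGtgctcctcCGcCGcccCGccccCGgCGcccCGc
Ocln: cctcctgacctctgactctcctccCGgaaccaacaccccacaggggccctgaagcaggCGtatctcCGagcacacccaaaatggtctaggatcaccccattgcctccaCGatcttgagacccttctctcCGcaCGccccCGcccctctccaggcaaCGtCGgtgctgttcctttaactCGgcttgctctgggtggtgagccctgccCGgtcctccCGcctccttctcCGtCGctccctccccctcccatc

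Enah had the smallest p of all genes. It encodes Mena, which lengthens actin filaments at the leading edge and at cell junctions, and spans chr1:181896384-182027556. H3K27me3 over Enah was 65.5 and 65.4 CPM in Lgr5+Tspan8hi libraries, against 268 and 322 CPM in Lgr5-Tspan8- libraries. The single positives held 148 and 116 CPM (Lgr5+Tspan8-) and 110 and 93.3 CPM (Lgr5-Tspan8hi), between the other groups and nearer to Lgr5+Tspan8hi. The level was 4.51-fold lower in Lgr5+Tspan8hi cells, or -2.17 ± 0.16 on the log2 scale (edgeR adjusted p = 6.31e-09). H3K4me3 at Enah held 98.9 and 97.6 CPM against 105 and 98.8 CPM, in the order Lgr5+Tspan8hi, Lgr5-Tspan8-, and did not pass (-0.05 ± 0.18, adjusted p = 0.996). The related actin regulators Evl and Vasp did not pass in H3K27me3, at 0.42 and -0.71.

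Occludin and some claudins, proteins of the tight junctions between epithelial cells, had lower H3K27me3. Ocln held 45.6 and 39.4 CPM of H3K27me3 in Lgr5+Tspan8hi libraries, against 125 and 134 CPM in Lgr5-Tspan8- libraries (-1.61 ± 0.17, edgeR adjusted p = 3.92e-06). Cldn7, a claudin of luminal and other simple epithelia, had 11.1 and 17.6 CPM against 24.3 and 42.2 CPM, in the same order (-1.23 ± 0.28, adjusted p = 0.0211), and Cldn6, a claudin of early embryonic epithelia, fell by 1.45. Of 27 tight junction genes tested, these 3 passed downward (against 0.955% of all genes) and none upward. The list's median was -0.17, against 0.03 for all genes, with 18 below 0 and 9 above. The call at Ocln held under all 18 other settings, while Cldn7 kept its call under 12 and Cldn6 under 10 of the 17 that gave an adjusted p, and neither kept it with offsets against reads per kb. H3K4me3 at Ocln was 94.2 and 116 CPM in Lgr5+Tspan8hi libraries, against 76.4 and 77.9 CPM in Lgr5-Tspan8- libraries, and did not pass (0.45 ± 0.18, adjusted p = 0.731). Pan-luminal H3K4me3 markers summed higher in the same Lgr5+Tspan8hi libraries, as given above, and their part in these values was not tested.

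**Figure D4:**
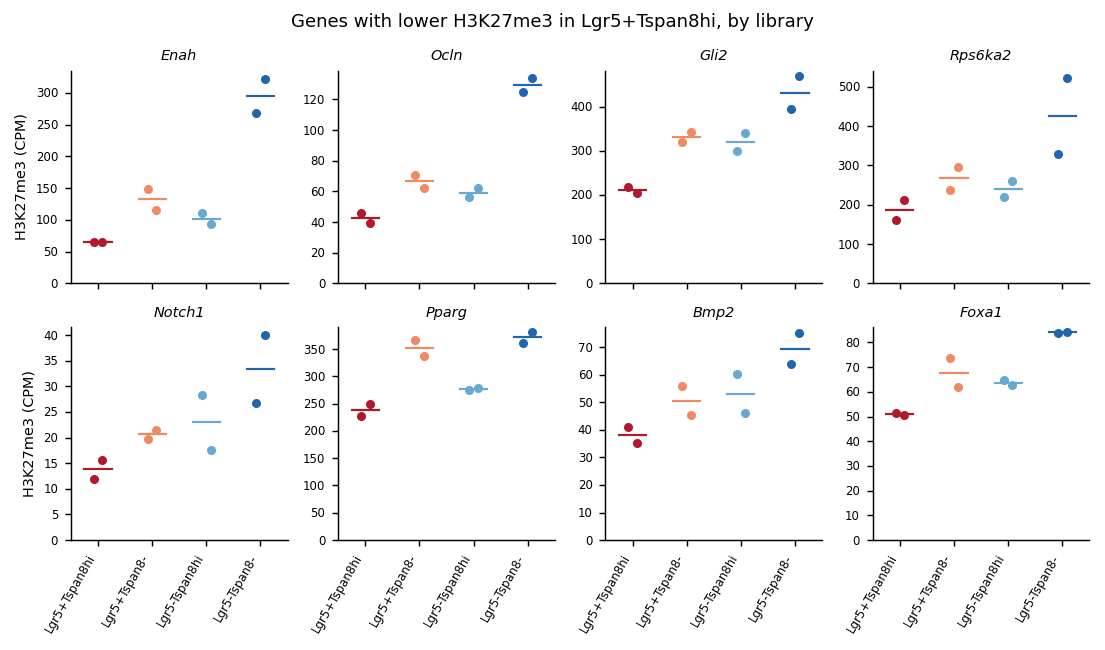
H3K27me3 in CPM is plotted by library (points) with the mean of each subpopulation (bars) for 8 genes that passed with lower levels in Lgr5+Tspan8hi than in Lgr5-Tspan8- cells. Both Lgr5+Tspan8hi libraries lie below both Lgr5-Tspan8- libraries in every panel, as at Enah, where they lie at 65.5 and 65.4 CPM against 268 and 322 CPM.

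Some components of developmental signalling pathways passed downward, and most members of their lists did not pass in either direction. In the Hedgehog pathway the transcription factors Gli2 and Gli1 passed downward, 2 of 13 genes tested, against 0.955% of all genes. Gli2, the main activator of the pathway, held 219 and 205 CPM in Lgr5+Tspan8hi libraries, against 395 and 468 CPM in Lgr5-Tspan8- libraries (-1.02 ± 0.13, edgeR adjusted p = 7.69e-05). Gli1, a transcriptional target of the pathway, held 30.8 and 23.7 CPM against 51.3 and 56.5 CPM (-0.98 ± 0.21, adjusted p = 0.0136), and overlaps Arhgap9. Gli3, the main repressor, did not pass (0.52 ± 0.18, adjusted p = 0.157), nor did the ligand Shh (-0.62 ± 0.18, adjusted p = 0.079).

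The counts in the Notch, BMP and Wnt lists are also to be read against 0.955% of all genes passing downward. Among 17 Notch pathway genes tested only the receptor gene Notch1 passed, with 12 and 15.7 CPM in Lgr5+Tspan8hi libraries, against 26.8 and 40.1 CPM in Lgr5-Tspan8- libraries (-1.29 ± 0.27, edgeR adjusted p = 0.0136). Of 32 genes of the TGF-beta and BMP pathway, the ligand gene Bmp2 and its target Id3, an inhibitor of basic helix-loop-helix factors, passed downward. Bmp2 held 40.9 and 35.1 CPM against 63.8 and 75.2 CPM, in the same order. Id3 held 2.16 and 1.49 CPM against 9.25 and 7.81 CPM, so few reads stand behind it. Per kb the mean level of H3K27me3 at this short gene was 1.16 CPM in Lgr5+Tspan8hi libraries and 5.43 CPM in Lgr5-Tspan8- libraries. H3K4me3 at Id3 was 118 and 118 CPM against 76.4 and 79.4 CPM and did not pass (0.60 ± 0.18, adjusted p = 0.252). In the Wnt lists the ligand Wnt7b (-0.73 ± 0.16) and the secreted inhibitor Dkk1 (-0.87 ± 0.21) passed downward, 1 of 19 ligands and 1 of 20 inhibitors and targets. None of 24 Wnt receptors and R-spondins passed. Id3 kept its call under 9 of 16 other settings with an adjusted p, Dkk1 under 10 of 18 and Notch1 under 14 of 17.

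Lineage regulators with lower H3K27me3 were Pparg, the master regulator of fat cells, and Foxa1, the pioneer factor of hormone-sensing luminal cells. Pparg held 228 and 250 CPM in Lgr5+Tspan8hi libraries, against 361 and 382 CPM in Lgr5-Tspan8- libraries (-0.64 ± 0.12, edgeR adjusted p = 0.00653). It was the only one of 9 adipocyte genes tested to pass, against 0.955% of all genes downward. Of the 9, 5 were above 0 and 4 below, with a median of 0.11. In H3K4me3 5 of 6 adipocyte genes were below 0, and Plin4 passed downward (-2.58 ± 0.55, adjusted p = 0.00881). Foxa1 held 51.6 and 50.6 CPM against 83.7 and 84.4 CPM, in the same order (-0.72 ± 0.17, adjusted p = 0.0254). Foxa1 was the only one of 12 hormone-sensing luminal genes to pass, against 0.955% of all genes downward. Esr1 stood at 0.20 and Pgr at 0.17, and neither passed. Of 37 matrix crosslinking and remodelling genes, Loxl1 and Adamts6 passed downward (0.955% of all genes did) and Fbn2 upward (0.348%). Loxl1, which crosslinks elastin, held 63.0 and 71.0 CPM against 105 and 145 CPM (-0.91 ± 0.16, adjusted p = 0.00456), while its relative Lox did not pass (-0.83 ± 0.22, adjusted p = 0.0575). Rps6ka2, a kinase downstream of ERK, held 160 and 211 CPM in Lgr5+Tspan8hi libraries, against 328 and 523 CPM in Lgr5-Tspan8- libraries (-1.2 ± 0.17, adjusted p = 0.000577). The further large losses taken by the naming rule, Ypel4, Mos, Tspan17, Nfil3, Hexa and Slc16a3, had log2 fold changes between -1.61 and -1.2. Hexa kept its call under 6 of 18 other settings.

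On the higher side, the named genes included matrix and adhesion genes. Col6a4, a collagen VI chain, held 157 and 129 CPM of H3K27me3 in Lgr5+Tspan8hi libraries, against 78.8 and 54.1 CPM in Lgr5-Tspan8- libraries (1.12 ± 0.19, edgeR adjusted p = 0.00261). Col9a1, a collagen IX chain of cartilage, rose by 0.96, Fbn2, the fibrillin of developing elastic fibres, by 0.81, and Itga1, the collagen-binding integrin subunit, by 0.84. Of 37 collagen and laminin genes of the list, which does not hold Col6a4, only Col9a1 passed (0.348% of all genes passed upward), and 27 were above 0 with a median of 0.29. Leaving out Lgr5+Tspan8hi replicates 1 and 2 in turn gave medians of 0.04 and 0.56, and leaving out Lgr5-Tspan8- replicates 1 and 2 in turn gave 0.45 and -0.01.

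Ntf3, the neurotrophin NT-3, held 95.1 and 101 CPM in Lgr5+Tspan8hi libraries, against 57.3 and 38.0 CPM in Lgr5-Tspan8- libraries (1.06 ± 0.18, edgeR adjusted p = 0.00286). It was the only one of 17 neurotrophin genes to pass, against 0.348% of all genes upward. Its receptor Ntrk3 stood at 0.51 ± 0.15 (adjusted p = 0.083). Cd34, a sialomucin of blood progenitors, vessels and some stem cells, held 40.1 and 35.8 CPM against 19.2 and 10.1 CPM (1.41 ± 0.28, adjusted p = 0.00975). Ccnd2, the cyclin D2 that drives entry into the cell cycle, held 28.4 and 30.8 CPM against 16 and 10.5 CPM (1.18 ± 0.26, adjusted p = 0.0161). Prdm1, the repressor Blimp1, held 27.3 and 39.0 CPM against 15.5 and 15.6 CPM, in the same order (1.09 ± 0.25, adjusted p = 0.0235). The groups did not overlap at these 4, as at all 288 genes that passed, and the naming rule required this. DESeq2 gave Cd34, Ccnd2 and Prdm1 no adjusted p, as at 32 of the 288 genes. The further large gains taken by the rule, at Serpinb2, Aif1l, Cyp4a10, Hs3st3b1 and Arsj, had log2 fold changes between 1.05 and 1.2. Of the 17 other settings with an adjusted p, Serpinb2 kept its call under 7, Cyp4a10 under 10, Hs3st3b1 under 11 and Aif1l under 13. Arsj kept its call under 16 of 18.

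Axon guidance genes, many of which are long and also act in mammary ducts, moved both ways. Slit2, a secreted ligand of Robo receptors, and Sema3e, a secreted semaphorin, passed upward, and the receptor Plxna4 and the ligand Ntn1 passed downward. That is 2 of 44 genes each way, against 0.348% of all genes upward and 0.955% downward. Slit2 held 295 and 284 CPM in Lgr5+Tspan8hi libraries, against 217 and 151 CPM in Lgr5-Tspan8- libraries (0.66 ± 0.16, edgeR adjusted p = 0.0333). Plxna4 held 749 and 744 CPM against 948 and 1137 CPM, in the same order (-0.48 ± 0.11, adjusted p = 0.0239). Of the 44 genes of this list 34 were above 0, with a median of 0.23, against 0.03 for all genes. That median was 0.07 when Lgr5+Tspan8hi replicate 1 was left out, and 0.11 when replicate 2 of Lgr5-Tspan8- was. Among genes of neural signalling the glutamate receptor Grm5 (0.67 ± 0.14) rose and the NMDA receptor subunit Grin2d (-0.80 ± 0.18) fell, and the potassium channel Kcnk2 rose by 0.66.

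Genes that carry the mark densely in most cells of the body leaned to lower H3K27me3 in Lgr5+Tspan8hi cells. The 56 developmental transcription factors tested had a median of -0.47 with 55 on the negative side, and 6 passed downward (10.7%, against 0.955% of all genes). That share of all genes is not matched for density of the mark. Of the 4189 genes with the most H3K27me3 per kb, 128 passed downward. Leaving out Lgr5-Tspan8- replicate 1 gave a median of -0.75, and leaving out its replicate 2 gave -0.22. Among them are Dlx5, Emx2, Evx1, Barhl2 and Zic4, regulators of limb, skull, brain and spinal cord development. Dlx5 held 29.6 and 33.4 CPM in Lgr5+Tspan8hi libraries, against 51.6 and 68.0 CPM in Lgr5-Tspan8- libraries (-0.93 ± 0.20, edgeR adjusted p = 0.0133). Emx2 held 56.9 and 51.9 CPM against 77.4 and 111 CPM, in the same order (-0.79 ± 0.19, adjusted p = 0.0328). The 39 Hox genes had a median of -0.49 with 37 on the negative side, and Hoxa3 alone passed, with 315 and 373 CPM against 418 and 636 CPM (-0.62 ± 0.16, adjusted p = 0.0464). Hoxa3 overlaps Hoxa4, Hoxa5 and Hoxa6, so their reads cannot be told apart. The Hox median was -0.77 without Lgr5-Tspan8- replicate 1 and -0.20 without its replicate 2. With offsets against reads per kb, these medians were -0.06 for both lists, with 36 of 56 and 23 of 39 genes below 0. No member of either list passed under those offsets.

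The same lean appeared over all genes when ordered by density of the mark. With genes split into 5 equal bins, in the bin with the most H3K27me3 per kb (median 2.88 CPM per kb) the median log2 fold change was -0.30, and 128 genes passed downward and 3 upward. In the middle bin (0.652 CPM per kb) the median was 0.16, with 40 genes upward and 13 downward. In the lowest bin the median was 0.11, and 1 gene passed. The effective depth, the percentage of a library's counts that would give its number of genes at 0 by counting alone from the mean shares of the 8 libraries, was 64.6 and 61.3% in the Lgr5+Tspan8hi libraries, against 78.8 and 79.0% in the Lgr5-Tspan8- libraries. Whether these values bear on the lean was not tested, and no input library was used here.

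X-linked genes, which in females lie on one active and one inactive chromosome, were below 0 in 939 of 1021 tested, with a median of -0.36, which was -0.57 without Lgr5-Tspan8- replicate 1 and -0.16 without its replicate 2. Of these, 17 passed downward and none upward (1.67%, against 0.955% of all genes). Frmpd4, which binds the synaptic scaffold PSD-95, held 2240 and 2169 CPM in Lgr5+Tspan8hi libraries, against 2969 and 3598 CPM in Lgr5-Tspan8- libraries (-0.58 ± 0.10, edgeR adjusted p = 0.00362). Arhgap6, a GTPase-activating protein, fell by 0.58, and Nhs, a regulator of actin at cell junctions, fell by 0.54. Under offsets against reads per kb the X-linked median was -0.15, and 747 of 1021 genes were below 0.

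**Figure D5:**
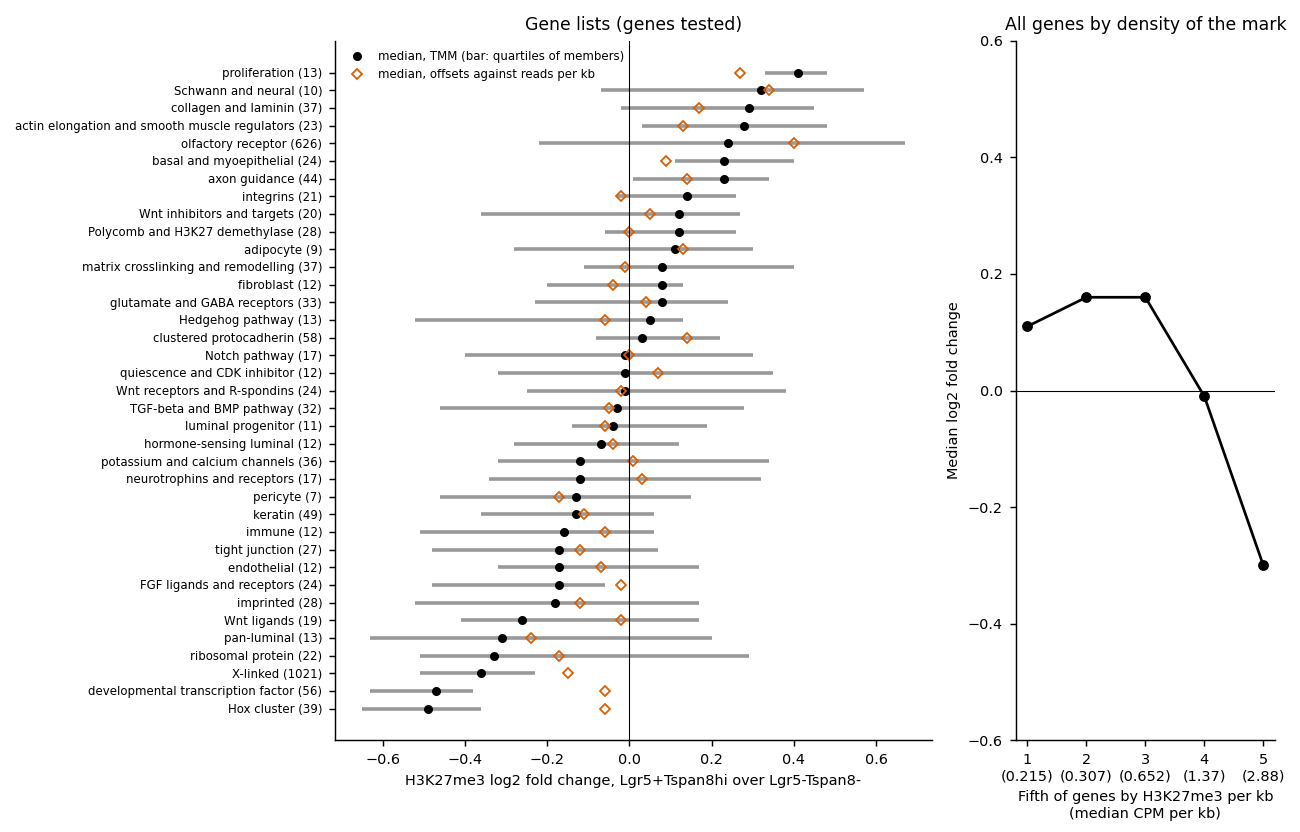
On the left, the median H3K27me3 log2 fold change of Lgr5+Tspan8hi over Lgr5-Tspan8- cells is given for each gene list (filled points, with the quartiles of its members as bars) beside the median under offsets against reads per kb (open diamonds). On the right, the median over all genes is plotted by bin of H3K27me3 per kb, where it is -0.30 in the densest bin. The developmental transcription factor and Hox lists lie lowest, and the open diamonds lie at -0.06 for both.

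Genes that define basal cells showed no passing difference. Of 24 basal and myoepithelial genes none passed, 19 were above 0 and the median was 0.23. It was -0.10 when Lgr5+Tspan8hi replicate 1 was left out and 0.46 when its replicate 2 was. For the Lgr5-Tspan8- libraries the values were 0.56 with replicate 1 left out and 0.05 with replicate 2 left out. Krt5 and Krt14 held 5.09 CPM or less of H3K27me3 in all 4 libraries, values not scaled by gene length. Trp63 held 103 and 84.4 CPM of H3K27me3 in Lgr5+Tspan8hi libraries, against 107 and 71.3 CPM in Lgr5-Tspan8- libraries, and the groups overlapped (0.08 ± 0.18). Of 13 proliferation genes none passed and 11 were above 0, with a median of 0.41 that was -0.02 without Lgr5+Tspan8hi replicate 1. Mki67, the antigen of dividing cells, held 24.8 and 17.7 CPM against 13.0 and 8.26 CPM (1.03 ± 0.30, edgeR adjusted p = 0.0896). None of 28 genes of the Polycomb complexes and H3K27 demethylases passed. Ezh2, the writer of the mark, stood at 0.56 ± 0.25 and Kdm6a, a demethylase, at 0.24 ± 0.22. No member of the fibroblast, endothelial or immune lists (12 genes each) passed in H3K27me3. In H3K4me3 the fibroblast gene Dcn passed downward (-2.49 ± 0.34).

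The sorting genes gave lower values that did not pass. Lgr5 held 112 and 62.5 CPM of H3K27me3 in Lgr5+Tspan8hi libraries, against 163 and 125 CPM in Lgr5-Tspan8- libraries (-0.71 ± 0.20, edgeR adjusted p = 0.0704). Tspan8 held 14.6 and 11 CPM against 29.1 and 21.5 CPM, in the same order (-0.97 ± 0.28, adjusted p = 0.083). The groups did not overlap at either gene, a separation seen downward at 21.6% of all genes tested. H3K4me3 at Tspan8 was 69.4 and 84.4 CPM in Lgr5+Tspan8hi libraries, against 25.1 and 21.3 CPM in Lgr5-Tspan8- libraries, and rose by 1.76 (adjusted p = 1.96e-06). At Lgr5 it was 61.7 and 94.5 CPM against 51.9 and 72.8 CPM and did not pass (0.30 ± 0.20).

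The single-positive subpopulations mostly lay between the 2 groups at the genes that passed. Both of their means lay between those of Lgr5+Tspan8hi and Lgr5-Tspan8- cells at 70 of the 77 higher and 196 of the 211 lower genes. Those genes were picked for a difference between the outer groups, so these counts are a description. Lgr5-Tspan8hi cells were nearer to Lgr5+Tspan8hi than to Lgr5-Tspan8- cells at 50 of the higher and 151 of the lower genes. Lgr5+Tspan8- cells were nearer to them at 37 and 96. The test of whether the Tspan8 difference depended on Lgr5 found 2 genes, Grik3 and Rimklb (0.00905% of genes tested), at neither of which Lgr5+Tspan8hi and Lgr5-Tspan8- cells differed past the threshold.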

How the data were processed

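Raw read counts for each of 27080 Entrez genes were deposited by the authors for 16 immunoprecipitated libraries, without normalization. Per the submitters' processing notes, featureCounts and build mm10 were used. The sources used here do not state the aligner, software versions, annotation or counted regions. No value is set against input, since the 8 input samples were not analysed here.

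Symbols and coordinates came from the RefSeq gene table of GRCm38.p6 (mm10), in which 25189 identifiers were found. The 8 H3K27me3 libraries were fitted together with a mean for each subpopulation in edgeR 4.0.16 (R 4.3.3), after filterByExpr and TMM scaling, with the robust quasi-likelihood test and Benjamini-Hochberg adjustment over 22099 genes. H3K4me3 was fitted likewise over 19009 genes. The fits had 4 residual degrees of freedom, and the common biological coefficient of variation was 16.8% for H3K27me3 and 16% for H3K4me3. Genes with an adjusted p under 0.05 are said to have passed. CPM values are TMM-scaled except where given of the library total, and standard errors of log2 fold changes were derived from the test statistic. The scripts were tested on simulated counts. Chromatin counts give the balance of genes within a library, so a change common to all genes cannot be seen.

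Named genes were Lgr5 and Tspan8, the 12 largest changes in each direction among genes that passed without overlap and with a mean of at least 30 counts (predicted genes and clones left out), up to 3 passing members of each gene list by adjusted p, up to 8 genes past the threshold in both marks, and a few from H3K4me3 and the interaction. Of these 69 genes, 22 overlap another gene, so reads cannot be assigned to one of them. The overlapping named genes include Pde3a, Ptprt, Notch1, Cd34, Ccnd2, Foxa1, Itga1 and Slit2. Barhl2, Evx1, Zic4, Ntn1, Sorcs1 and list members that did not pass were named after their values were seen. Some genes taken by the rule are not reported here. The comparison, the gene lists and the naming rule were chosen with earlier results of these data known. The other settings were RLE size factors, library totals, loess offsets (span 0.3) against mean abundance or reads per kb, no filter, a mean of at least 5 CPM, DESeq2 1.42.0, voom of limma 3.58.1, the replicate number as a block, the 4 compared libraries alone, and each library left out in turn.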

Additional observations from a re-analysis of the deposited data

Results flagged for a closer look

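The H3K27me3 difference between Tspan8hi and Tspan8- cells was not the same in Lgr5+ and Lgr5- cells at 2 genes, by the test of the interaction itself. At Grik3, a kainate receptor subunit, Tspan8hi minus Tspan8- was 0.81 on the log2 scale in Lgr5+ cells and -1.06 in Lgr5- cells, a difference of 1.88 ± 0.24 (SE, edgeR adjusted p = 0.000717). H3K27me3 at Grik3 was 184 and 119 CPM in Lgr5+Tspan8hi, 83.8 and 88.4 CPM in Lgr5+Tspan8-, 119 and 100 CPM in Lgr5-Tspan8hi and 214 and 239 CPM in Lgr5-Tspan8- libraries, so both single positives lay low. At Rimklb, an enzyme that joins glutamate to other molecules, the values were 1.02 and -1.10, a difference of 2.10 ± 0.34 (adjusted p = 0.0183). Its levels were 42.7 and 32.5 CPM in Lgr5+Tspan8hi, 20.9 and 16.1 CPM in Lgr5+Tspan8-, 17.0 and 19.9 CPM in Lgr5-Tspan8hi and 43.5 and 35.3 CPM in Lgr5-Tspan8- libraries. Without Lgr5+Tspan8- replicate 1 no gene passed this test in edgeR, and 993 had an unadjusted p under 0.05.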

How the results depend on the processing

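The 288 genes past the threshold in H3K27me3 became 501 with no filter on low counts, 737 with DESeq2 (with 15852 genes left without an adjusted p), 757 with limma-voom and 92 with the 4 compared libraries alone. Leaving out each library gave between 31 and 1465 genes. With the replicate number as a block 955 genes passed, all 288 among them. The labels do not say that a number pairs libraries, and libraries of Lgr5+Tspan8hi and Lgr5-Tspan8- cells with the same number deviated together with r = 0.24 across genes, a hint from the data and not the design. This was the highest pair of subpopulations in H3K27me3. The other pairs lay between 0.0201 and 0.23, and the same pair gave 0.122 in H3K4me3. Of the 58 named genes that passed, the 4 libraries alone kept 26, and leaving out a library kept between 10 and 58. The block kept all 58. Without Lgr5+Tspan8- replicates 1 and 2 the count was 171 each time, and without Lgr5-Tspan8hi replicates 1 and 2 it was 470 and 455. The 20 genes of H3K4me3 became 58 with limma-voom and 51 with the 4 libraries alone, and ranged from 5 to 53 with a library left out. The 2 genes of the interaction became 4 with offsets against reads per kb, 15 with no filter, 12 with DESeq2 and 13 with the replicate block, and ranged from 0 to 109 with a library left out. The lowest value came without Lgr5+Tspan8- replicate 1 and the highest without Lgr5-Tspan8hi replicate 2. No named gene reversed its direction under these settings while it passed. With 1 library left in a group, its spread is assumed to equal that of the others. The causes of these movements were not tested. Depth limits the low genes: Id3, at 9.25 CPM or less in the 4 libraries compared, was not tested when a mean of at least 5 CPM was required.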

Other observations

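Further H3K27me3 losses in Lgr5+Tspan8hi cells, named after their values were seen, included several members of a few small families. The postsynaptic scaffold genes Shank1, Shank2 and Shank3 had log2 fold changes of -0.61, -1.06 and -0.83 (edgeR adjusted p = 0.048, 7.69e-05 and 0.0094). The retinoic acid genes Aldh1a2, which makes the ligand, and Cyp26b1 and Cyp26c1, which break it down, had -0.49, -0.92 and -0.84 (adjusted p = 0.0348, 0.0025 and 0.0389). Cyp26a1 did not pass (-0.64, adjusted p = 0.157), and Aldh1a1 stood on the other side of 0 (0.70, adjusted p = 0.0809). The lipid transporter genes Abca8b, Abca8a and Abca9 had -0.98, -0.77 and -0.63, while Abca6 and Abca5 did not pass, at -0.30 and 0.13. Abca8b, Abca8a and Abca9 all lie on chromosome 11, so they may not be separate losses. Igf2bp2 and Igf2bp3, RNA-binding proteins of growth and of fetal tissue, and Lin28a, the inhibitor of let-7 maturation, had -1.07, -0.63 and -0.91. Reln and Mef2c, the secreted guidance protein reelin and a muscle and neural transcription factor, lay on the higher side with 0.80 and 0.93 (adjusted p = 0.00966 and 0.00235). No test was made of these families as groups.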
